A study of Mus musculus with 53 samples.

Results

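Avp and Oxt, the genes of the magnocellular hormones vasopressin and oxytocin, were followed as 2 of 53379 genes counted in laser-captured mouse hypothalamus. Both were chosen by name, and their levels, in CPM (a gene's counts scaled by the total count of its library), were read in 49 of 53 RNA-seq libraries of the paraventricular nucleus (PVN) and the arcuate nucleus (ARC). Replicates 5, 7, 32 and 35 were left out because of low depth or because their tissue or table was at odds with the labels. The study asked how loss of Nnat, an imprinted gene expressed from the paternal allele, relates to gene expression in these nuclei in mice that do or do not become obese.

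All mice were of the C57BL/6 strain, and the tissue protocol in the labels gives an age of 13 to 14 weeks. Nnat+/-p mice carried a global null allele inherited from the father, present in every tissue from conception, and Nnat+/+ littermates were the wild-type controls. On chow, Nnat+/-p mice were labelled obese or non-obese. The female-labelled PVN set held 4 Nnat+/+ (24.1 to 24.6 g), 3 non-obese Nnat+/-p (20.4 to 23.9 g) and 3 obese Nnat+/-p libraries (31.5 to 33.35 g), all on chow. The male PVN set held 3 Nnat+/+ (31.4 to 33.5 g), 3 non-obese Nnat+/-p (27.4 to 34.3 g) and 4 obese Nnat+/-p libraries (38.8 to 46.5 g) on chow, with 6 Nnat+/+ (37.4 to 42.9 g) and 3 Nnat+/-p libraries (38.2 to 43.9 g) on high fat diet (HFD). The ARC set, all male, held 2 Nnat+/+, 4 non-obese and 4 obese Nnat+/-p libraries on chow, and 6 Nnat+/+ and 4 Nnat+/-p libraries on HFD. Replicates 39 and 40, both non-obese Nnat+/-p ARC libraries, share a labelled weight of 34.3 g, as do replicates 1 and 2 of the female-labelled Nnat+/+ group (24.1 g), and the labels do not say whether each pair came from 1 mouse. The protocol speaks of male mice throughout, while the titles of 1 table say female. The libraries used from that table had 85.2 to 171 CPM of Xist, the RNA of the inactive X chromosome. They had 0 to 0.119 CPM of the Y-linked gene Ddx3y, against 46.7 to 114 CPM in the male PVN set. The libraries used under the female titles were therefore of female tissue. A captured nucleus holds all of its cell types, so the values are not those of magnocellular neurons alone.

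Vasopressin and oxytocin are made by the large magnocellular neurons of the PVN and the supraoptic nucleus, which project to the posterior pituitary, and by smaller neurons that project within the brain. Each hormone is cut from a precursor that also holds a neurophysin, its carrier in the secretory granule, and most magnocellular neurons make mainly 1 of the pair. Vasopressin acts on water retention and vascular tone, and oxytocin on labour, milk ejection, social behaviour and food intake. The ARC, which lies near the base of the third ventricle, holds Agrp and Pomc neurons and is not a site of magnocellular neurons.

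The genes are neighbours on chromosome 2 and are read towards each other. In build GRCm38, Oxt (ENSMUSG00000027301) lies at chr2:130576173-130577054 on the plus strand and Avp (ENSMUSG00000037727) at chr2:130580620-130582554 on the minus strand, with 3565 bases between their 3′ ends. Each has 3 exons, with 577 exonic bases in Avp and 537 in Oxt, and no other annotated gene overlaps either. Nnat lies 27.0 Mb away on the same chromosome. Exon 2, which codes for the middle of the neurophysin, is nearly the same in both genes and is shown because short reads from it cannot always be assigned. The bases that differ are in capitals.
Avp exon 2, chr2:130581056-130581257, minus strand: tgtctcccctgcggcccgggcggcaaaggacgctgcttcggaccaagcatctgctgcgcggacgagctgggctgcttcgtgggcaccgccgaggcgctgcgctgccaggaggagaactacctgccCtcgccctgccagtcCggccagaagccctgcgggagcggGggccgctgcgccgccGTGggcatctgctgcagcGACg
Oxt exon 2, chr2:130576591-130576792, plus strand: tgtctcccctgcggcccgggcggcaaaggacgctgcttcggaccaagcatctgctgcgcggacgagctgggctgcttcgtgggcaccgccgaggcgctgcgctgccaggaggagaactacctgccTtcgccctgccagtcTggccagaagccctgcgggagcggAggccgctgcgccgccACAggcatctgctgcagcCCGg
Of the 202 bases of exon 2, 193 were identical (95.5%), with a longest identical run of 127 bases. Of all 50-base windows of the transcripts, 78 were the same in both genes, and 125 matched the other gene with at most 2 mismatches (23.7% of the windows of Avp and 25.6% of those of Oxt). Counts from that stretch are therefore uncertain between the pair, while the remaining exons are distinct.

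The 250 bases before each RefSeq transcription start (GRCm38.p6) are shown because the genes were compared for joint variation. The capitals mark matches to AGGTCA (the core of nuclear receptor sites), CACGTG (E-box) and CATAAA (an AT-rich element known from some start sites).
Avp promoter, chr2:130582589-130582838, minus strand: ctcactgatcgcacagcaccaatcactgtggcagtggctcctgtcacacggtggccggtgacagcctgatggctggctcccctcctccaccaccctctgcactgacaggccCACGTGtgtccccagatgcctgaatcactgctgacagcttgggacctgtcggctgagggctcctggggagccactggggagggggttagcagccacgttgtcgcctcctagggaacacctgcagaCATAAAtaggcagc
Oxt promoter, chr2:130575919-130576168, plus strand: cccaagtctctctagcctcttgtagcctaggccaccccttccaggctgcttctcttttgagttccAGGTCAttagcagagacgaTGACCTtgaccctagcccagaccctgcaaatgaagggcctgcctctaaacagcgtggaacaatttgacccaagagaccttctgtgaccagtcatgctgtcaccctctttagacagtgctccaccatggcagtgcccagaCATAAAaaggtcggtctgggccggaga
The Oxt window held 2 AGGTCA matches, 185 and 166 bases before the start, and Avp held none. AGGTCA was present on either strand in 14.0% of 32851 promoter windows of the same length. The Avp window held 1 CACGTG match 139 bases before the start, a motif present in 6.02% of windows, and Oxt held none. CATAAA, searched on the forward strand, stood 14 bases before the start in Avp and 27 bases before it in Oxt, against 5.98% of all windows. TACGTG, a SIM1 and ARNT2 type site found in 2.72% of windows, TGACGT (6.47%) and, on the forward strand, TATAAA (7.59%) did not occur in either window. No motif overlapped another match. The matches describe the sequence only.

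Library totals were 6219365 to 30228973 counts in the female-labelled PVN set, 2268021 to 8560199 in the male PVN set and 1479953 to 18058097 in the ARC set. Nnat was at 224 to 584 CPM in the 21 Nnat+/+ libraries and 0.268 to 13.7 CPM in the 28 Nnat+/-p libraries, so no library used went against its genotype label. In 2 male PVN libraries the hormones were nearly absent. Replicate 15 (chow Nnat+/+) had 1 count of Avp, 3 of Oxt and 0.489 CPM of Sim1, the transcription factor that defines much of the PVN, with 98.4 CPM of the ARC neuron gene Pomc. Replicate 24 (HFD Nnat+/+) had 5 counts of Avp and 7 of Oxt with 15.9 CPM of Sim1, and 25.8 CPM of Pmch, a gene of lateral hypothalamic neurons. Sim1 was at 40.6 to 206 CPM and Pomc at 0.288 to 14.3 CPM in the other 17 male PVN libraries. Most results of Avp and Oxt that rest on replicates 15 and 24 are given with and without them. Results of other genes include both libraries unless stated.

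**Figure D1:**
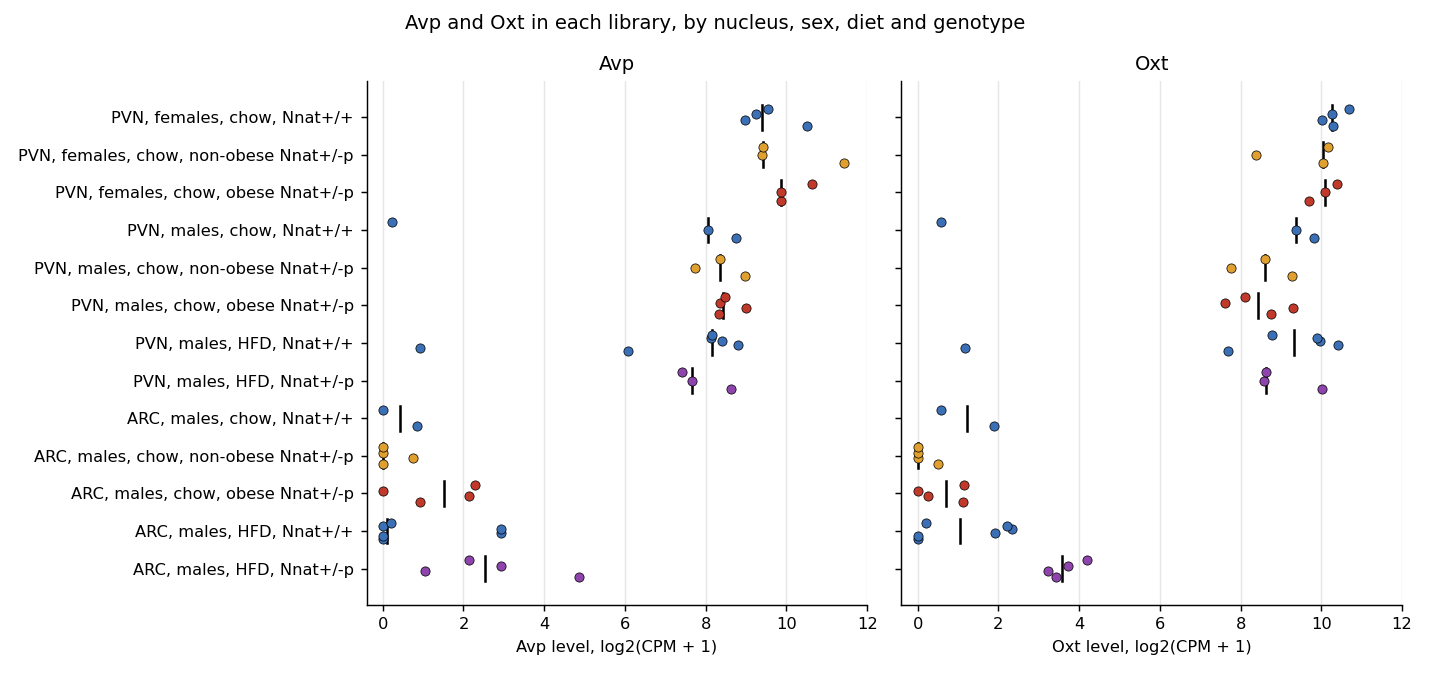
Level of Avp (left) and Oxt (right) as log2(CPM + 1) in each of the 49 libraries, by group. Each point is a library and each black line the group median. The 10 female-labelled and 17 of 19 male PVN libraries stood above every ARC library for each gene.

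Both genes were among the most abundant RNAs of the female-labelled PVN libraries. Together they took 0.101% to 0.380% of all counts there. Ranked by CPM per kilobase of exon, Avp held places 7 to 35 (median 19) and Oxt places 10 to 37 (median 16) among all genes. In the 17 male PVN libraries without replicates 15 and 24, Avp held places 23 to 142 (median 31) and Oxt 15 to 41 (median 24). On the same per-length scale, Oxt exceeded Avp in 17 of 19 male PVN libraries (9 of 9 Nnat+/+ and 8 of 10 Nnat+/-p) and in 5 of 10 female-labelled libraries (3 of 4 Nnat+/+ and 2 of 6 Nnat+/-p). The male Nnat+/+ libraries counted include replicates 15 and 24. Their 1 and 5 counts of Avp and 3 and 7 of Oxt are too few to settle the order.

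In the female-labelled PVN set, Avp was at 1463, 502, 603 and 745 CPM in the Nnat+/+ libraries (replicates 1 to 4). Avp was at 2755, 676 and 689 CPM in the non-obese Nnat+/-p libraries (replicates 9, 10 and 11), and at 931, 933 and 1588 CPM in the obese Nnat+/-p libraries (replicates 6, 8 and 12). The 3 groups overlapped, and replicate 9 was the highest of all. Oxt was at 1254, 1039, 1221 and 1647 CPM in the Nnat+/+ libraries, at 1044, 331 and 1139 CPM in the non-obese and at 823, 1091 and 1329 CPM in the obese Nnat+/-p libraries, in the same order. The groups overlapped for Oxt too, and replicate 10, a non-obese Nnat+/-p library, was the lowest.

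Neither gene passed the test in a comparison of the female-labelled groups. Counts were tested by the quasi-likelihood method of edgeR, with p-values adjusted over all genes after Benjamini and Hochberg, and a call was an adjusted p below 0.25, the threshold of the study. As in all comparisons here, fewer cells of a type and less RNA per cell cannot be told apart in bulk tissue. Avp differed by 0.46 on the log2 scale (SE 0.39) between obese Nnat+/-p and Nnat+/+ libraries and Oxt by -0.30 (SE 0.30), both with an adjusted p of 1.00. Of 15485 genes tested, 0.0129% were called in that comparison. Between non-obese Nnat+/-p and Nnat+/+ libraries the differences were 0.67 for Avp (SE 0.39) and -0.68 for Oxt (SE 0.30), again with an adjusted p of 1.00, where 0.00646% of genes were called. For obese against non-obese Nnat+/-p libraries they were -0.22 for Avp (SE 0.42) and 0.38 for Oxt (SE 0.32). In that comparison 0% of genes were called, with 474 at an unadjusted p below 0.05, 62 called by DESeq2 and 0 by limma. Both comparisons with Nnat+/+ share the same 4 control libraries.

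In the male PVN on chow, Avp was at 426, 267 and 0.163 CPM in the Nnat+/+ libraries (replicates 13, 14 and 15). It was at 500, 213 and 324 CPM in the non-obese Nnat+/-p libraries (replicates 18, 19 and 22) and at 322, 507, 328 and 356 CPM in the obese Nnat+/-p libraries (replicates 16, 17, 20 and 21). Apart from replicate 15, the 3 groups overlapped between 213 and 507 CPM. Oxt was at 909, 660 and 0.489 CPM in Nnat+/+, at 618, 217 and 391 CPM in non-obese and at 432, 632, 194 and 274 CPM in obese Nnat+/-p libraries. Replicates 13 and 14 had more Oxt than each of the 7 Nnat+/-p libraries, and replicate 15 had less than all of them.

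No difference between the male chow groups passed the test for either gene. The values for obese Nnat+/-p against Nnat+/+ were 0.94 for Avp (SE 0.72) and -0.28 for Oxt (SE 0.75), where 0.0256% of 15618 genes were called. For non-obese Nnat+/-p against Nnat+/+ they were 0.74 for Avp (SE 0.76) and -0.21 for Oxt (SE 0.81), where 0.0128% were called. For obese against non-obese Nnat+/-p they were 0.20 for Avp (SE 0.71) and -0.07 for Oxt (SE 0.76), where 0% were called, with 260 genes at an unadjusted p below 0.05 and 0 called by DESeq2. All 6 adjusted p-values were 1.00. Replicate 24, on HFD, was not part of the fit of the male chow groups. Without replicate 15, that fit kept 2 Nnat+/+ chow libraries. Obese Nnat+/-p then differed from Nnat+/+ by 0.37 for Avp (SE 0.31) and -0.84 for Oxt (SE 0.33, adjusted p = 1.00). The size of these values depended on replicate 15.

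On HFD, Avp in the male PVN was at 66.1, 0.896, 446, 335, 280 and 286 CPM in Nnat+/+ (replicates 23 to 28) and at 397, 200 and 171 CPM in Nnat+/-p libraries (replicates 29 to 31). Oxt was at 205, 1.25, 1360, 994, 944 and 438 CPM in Nnat+/+ and at 1035, 383 and 396 CPM in Nnat+/-p libraries. The Nnat+/-p values lay inside the Nnat+/+ range for both genes. The Nnat+/+ range was wide even without replicate 24, with replicate 23 the next lowest for both hormones.

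Neither hormone gene was called for genotype or diet in the male PVN. Nnat+/-p differed from Nnat+/+ on HFD by 0.12 for Avp (SE 0.76) and -0.09 for Oxt (SE 0.83), both with an adjusted p of 1.00, where 0.00569% of 17576 genes were called. HFD differed from chow in Nnat+/+ by 0.23 for Avp (SE 0.77, adjusted p = 0.951) and 0.48 for Oxt (SE 0.85, adjusted p = 0.894), where 1.43% were called. HFD differed from obese chow in Nnat+/-p by -0.59 for Avp (SE 0.83, adjusted p = 0.937) and 0.67 for Oxt (SE 0.89, adjusted p = 0.927), where 0.262% were called. The interaction, the genotype effect on HFD minus that of obese Nnat+/-p on chow, was -0.82 for Avp (SE 1.13) and 0.19 for Oxt (SE 1.22), where 0% of genes were called, with 802 at an unadjusted p below 0.05 and 7 called by DESeq2. Without replicates 15 and 24 the genotype difference on HFD was -0.14 for Avp and -0.35 for Oxt, that of HFD against chow in Nnat+/+ was -0.07 and 0.19, and the HFD against obese chow difference in Nnat+/-p was -0.57 for Avp (SE 0.32) and 0.69 for Oxt (SE 0.35, adjusted p = 0.555).

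**Figure D2:**
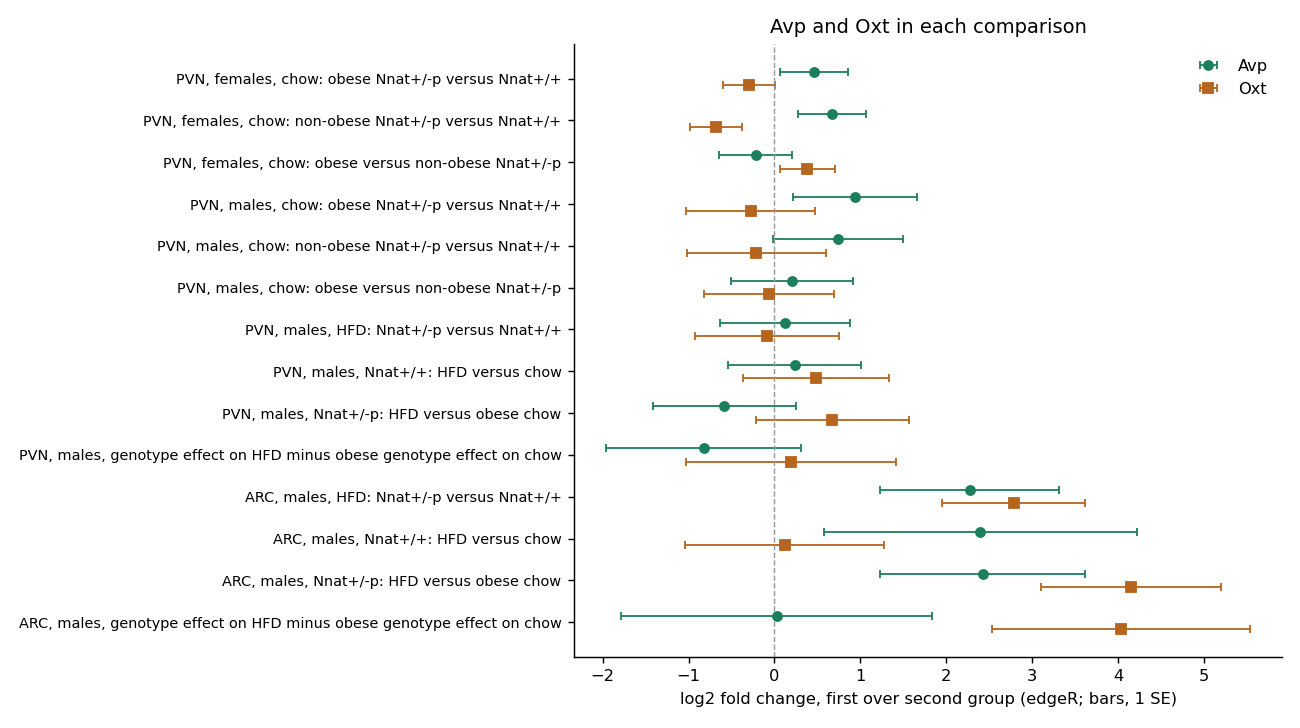
Log2 fold change of Avp (circles) and Oxt (squares) from edgeR in the comparisons within a nucleus that tested both genes, with bars of 1 SE. The PVN values lie between -0.82 and 0.94, and the called value is that of Oxt in the ARC of Nnat+/-p mice, 4.15. The ARC values against chow Nnat+/+ rest on 3 Avp counts there.

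Ordered by group median, Avp stood at 933 CPM in female-labelled obese Nnat+/-p, 689 in female-labelled non-obese Nnat+/-p and 674 in female-labelled Nnat+/+ libraries. It then stood at 342 CPM in male obese and 324 in male non-obese Nnat+/-p on chow, 283 in HFD Nnat+/+, 267 in chow Nnat+/+ and 200 in HFD Nnat+/-p libraries. For Oxt the order was female-labelled Nnat+/+ (1237 CPM), obese (1091) and non-obese (1044) Nnat+/-p, then male HFD Nnat+/+ (691), chow Nnat+/+ (660), HFD Nnat+/-p (396), chow non-obese (391) and chow obese Nnat+/-p (353). Every PVN group overlapped its neighbour in these orders, so none stood apart from the next. Sex, table and depth cannot be told apart between the female-labelled and male sets, which were counted in separate tables, and that difference was given no test.

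The ratio of Avp to Oxt counts sets the genes against each other within a library, and it was higher in Nnat+/-p than in Nnat+/+ libraries of the male PVN on chow. It was 0.469, 0.405 and 0.333 in the chow Nnat+/+ libraries, 0.810, 0.982 and 0.828 in the non-obese and 0.745, 0.802, 1.69 and 1.30 in the obese Nnat+/-p libraries. All 7 Nnat+/-p libraries lay above all 3 Nnat+/+ libraries. The ratio of replicate 15 came from 1 and 3 counts, for which the 95% exact binomial (Clopper-Pearson) interval was 0.00635 to 4.15, counting error only.

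By an exact two-sided permutation test of the log2 ratio (0.5 added to each count), obese Nnat+/-p exceeded Nnat+/+ by 1.30 on the log2 scale, a ratio 2.47-fold as high (p = 0.0286, the smallest that 4 against 3 libraries allow, adjusted p = 0.214 over 15 planned ratio comparisons). Without replicate 15 that difference was 1.30 (exact permutation p = 0.133, adjusted p = 0.306, 4 against 2 libraries). Non-obese Nnat+/-p exceeded Nnat+/+ by 1.00 (2.01-fold, exact permutation p = 0.1, the smallest that 3 against 3 allow, adjusted p = 0.306). Both comparisons share the Nnat+/+ libraries. Neither adjusted value was below 0.05. The weight classes were then joined, a comparison chosen after the data were seen, and the 7 Nnat+/-p libraries exceeded the 3 Nnat+/+ libraries by 1.18 (2.26-fold, exact permutation p = 0.00833, the smallest possible). Without replicate 15 the difference was 1.17 (exact permutation p = 0.0278, 7 against 2 libraries). The 7 were seen to lie above the Nnat+/+ libraries before the classes were joined. Both p-values of the joined comparison were thus fixed beforehand and give no support.

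In the female-labelled set the ratio was 1.17, 0.483, 0.494 and 0.452 in Nnat+/+, 2.64, 2.04 and 0.605 in non-obese and 1.13, 0.855 and 1.20 in obese Nnat+/-p libraries. Replicate 1 stood apart from the other 3 Nnat+/+ libraries, and the genotypes overlapped. Obese Nnat+/-p differed from Nnat+/+ by 0.82 (exact permutation p = 0.114, adjusted p = 0.306) and non-obese Nnat+/-p by 1.32 (exact permutation p = 0.143). With the weight classes joined, again after the data were seen, the difference was 1.07 (2.09-fold, exact permutation p = 0.0619), and with each library left out in turn the exact permutation p ran from 0.0357 (without replicate 1) to 0.119 (without replicate 2, 3 or 4).

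On HFD the ratio was 0.322, 0.714, 0.328, 0.337, 0.297 and 0.652 in Nnat+/+ and 0.383, 0.522 and 0.431 in Nnat+/-p libraries. The Nnat+/-p values fell between the lowest and highest Nnat+/+ values, and the difference was 0.09 (exact permutation p = 0.762, adjusted p = 0.816). The ratio of replicate 24 came from 5 and 7 counts, with an interval of 0.179 to 2.61. All 3 Nnat+/-p libraries on HFD lay below the 4 obese Nnat+/-p libraries on chow, by -1.28 (exact permutation p = 0.0286, the smallest possible, adjusted p = 0.214). In Nnat+/+ libraries HFD differed from chow by -0.06 (exact permutation p = 0.881).

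Over all 29 PVN libraries (16 Nnat+/-p and 13 Nnat+/+), the genotype difference was averaged with equal weight over female-labelled chow, male chow and male HFD. The differences were 1.07, 1.18 and 0.09 in that order, so the value on HFD was near 0. Their average was 0.78 (1.72-fold). Genotype labels were permuted within table and diet (permutation p = 0.00247), a test added after the data were seen. Without replicates 15 and 24 the average was 0.83 (permutation p = 0.00112). Both p-values draw on differences already seen in these libraries, so they are descriptions only. Neither gene alone was called for genotype in any PVN comparison. How reads from the shared part of exon 2 were assigned is not given in the sources used here, and their part in the ratio was not tested.

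**Figure D3:**
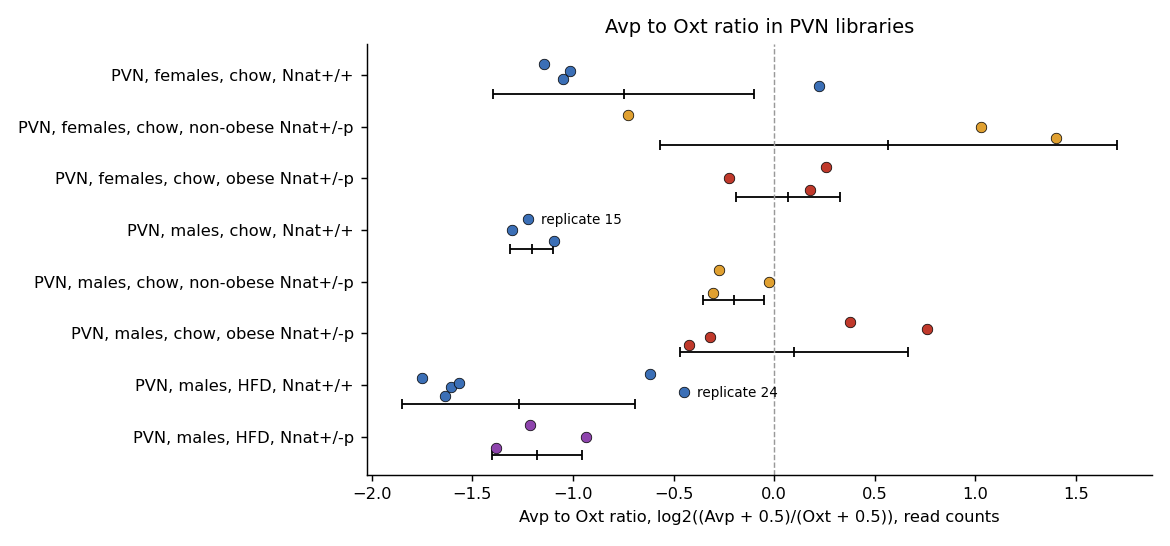
Log2 ratio of Avp to Oxt counts, with 0.5 added to each, in the 29 PVN libraries by group. Each point is a library, and the bar under it gives the group mean with 1 SD. On male chow all 7 Nnat+/-p points lie above the 3 Nnat+/+ points, while the genotypes overlap on HFD and in the female-labelled set.

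Between nuclei, both hormones were far higher in the PVN. In males, edgeR gave a difference between 19 PVN and 20 ARC libraries of 7.73 for Avp (SE 0.63, adjusted p = 3.86e-14) and 8.34 for Oxt (SE 0.59, adjusted p = 3.17e-16), where 34.4% of 21400 genes were called and the median over all genes was 0.13. Without replicates 15 and 24 the differences were 7.91 (SE 0.43) and 8.51 (SE 0.33). All 10 female-labelled and 17 of 19 male PVN libraries lay above every ARC library for each gene, and replicates 15 and 24 were the exceptions. PVN and ARC were counted in separate tables, so nucleus and table cannot be told apart. By limma with library weights the Oxt difference had an adjusted p of 0.0523.

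Genes of the PVN moved with the hormones between nuclei. Of 6 PVN transcription factors, 5 were higher in the PVN (Sim1 by 5.63, Pou3f2 by 3.22, Otp by 2.48, Nhlh2 by 1.45 and Arnt2 by 0.94 on the log2 scale), and Creb3l1, a regulator of Avp transcription, differed by 0.41 without passing the test. Crh (6.65) and Trh (2.77), the parvocellular releasing hormones, were higher, and Sst was lower (-1.10). All 5 ARC neuron markers tested were lower, among them Agrp (-5.25) and Pomc (-3.98). Of 9 genes known from magnocellular neurons 4 were higher, among them Caprin2, an RNA-binding protein of vasopressin neurons (2.74), and 5 lower, among them the peptide genes Cartpt (-1.60) and Gal (-0.80) and Cd38 (-0.76), which takes part in oxytocin release. Of 9 genes of prohormone processing and packaging 4 were higher, among them the convertase Pcsk1 (0.84), and 3 lower, among them the granin Chga (-0.92). Of 4 hormone receptors 2 could be tested. Oxtr, the oxytocin receptor, was lower in the PVN (-1.45), and Avpr1a, a vasopressin receptor, differed by 0.60 without passing the test. All 4 endothelial markers were higher and all 4 astrocyte and all 4 oligodendrocyte markers lower in the PVN, and the part of cell makeup in these differences was not tested.

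In the ARC both genes were near the limit of detection. A count of 0 allowed a level of up to 0.166 to 2.03 CPM (3 counts), depending on depth. Avp had 0 counts in 8 of 20 ARC libraries and at most 3 in 12, and Oxt had 0 in 6 and at most 3 in 10. Avp was at 0.807 and 0 CPM in chow Nnat+/+ (replicates 33 and 34), at 0, 0.676, 0 and 0 in non-obese (38, 39, 40 and 43) and at 0.899, 3.36, 0 and 3.85 in obese Nnat+/-p libraries (36, 37, 41 and 42). On HFD it was at 0, 0, 6.66, 6.66, 0 and 0.155 CPM in Nnat+/+ (44 to 49) and at 28.1, 1.06, 6.65 and 3.36 in Nnat+/-p libraries (50 to 53). Replicate 50 held most of the Avp counts of its group, and the groups overlapped.

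Oxt was highest in the ARC libraries of HFD Nnat+/-p mice, at 9.82, 8.46, 12.2 and 17.5 CPM. It was at 0, 0, 2.77, 4.07, 3.62 and 0.155 CPM in HFD Nnat+/+, at 1.20, 0.187, 0 and 1.22 in obese and 0.409, 0, 0 and 0 in non-obese Nnat+/-p chow libraries, and at 2.69 and 0.502 in chow Nnat+/+ libraries. All 4 HFD Nnat+/-p libraries lay above the other 16 ARC libraries, whose highest value was 4.07 CPM. The summed Oxt counts behind these levels were 227 in HFD Nnat+/-p (4 libraries), 50 in HFD Nnat+/+ (6), 15 in obese (4), 2 in non-obese (4) and 12 in chow Nnat+/+ (2), and those of Avp were 174, 61, 43, 1 and 3.

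Oxt in the ARC of Nnat+/-p mice was higher on HFD than in obese mice on chow, by 4.15 on the log2 scale (SE 1.05, adjusted p = 0.116 by edgeR, where 1.27% of 15753 genes were called). The call holds at the study's threshold of 0.25 and not at 0.05. It was lost without replicate 41 (adjusted p = 0.363), 42 (adjusted p = 0.343) or 50 (adjusted p = 0.409), and DESeq2 gave an adjusted p of 0.0345. Avp differed by 2.42 in that comparison (SE 1.20, adjusted p = 0.561). Against HFD Nnat+/+, HFD Nnat+/-p libraries differed by 2.78 for Oxt (SE 0.84) and 2.27 for Avp (SE 1.04), both with an adjusted p of 0.999, where 0.0127% of genes were called. The interaction with diet was 4.04 for Oxt (SE 1.50), and both genes had an adjusted p of 1.00, where 0.0127% were called.

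None of the remaining ARC comparisons passed the test for either gene. Of all 31 tests of the pair within a nucleus, edgeR called 1, with 6 at an unadjusted p below 0.05, DESeq2 called 1 of 34 and limma 2 of 31. With no filter on low counts edgeR called 5 of 34. Over all genes in the same comparisons, edgeR called 0.258% of tests, and 4.54% had an unadjusted p below 0.05. The tests of the pair share libraries, so they are not independent. HFD against chow in Nnat+/+ gave an adjusted p of 0.796 for Avp and a difference of 0.12 for Oxt (SE 1.16, adjusted p = 0.995), where 1.16% were called. The chow fit tested Avp only, since Oxt did not pass the filter on low counts (edgeR's filterByExpr, a count of at least 10 in enough libraries). Avp was not called between obese Nnat+/-p and Nnat+/+ (adjusted p = 1.00, 0.0205% of 14658 genes called), non-obese Nnat+/-p and Nnat+/+ (adjusted p = 1.00, 0.0136%) or the obese and the non-obese Nnat+/-p libraries (adjusted p = 0.999, 0.00682%). Non-obese Nnat+/-p and chow Nnat+/+ libraries held 1 and 3 Avp counts in all, so a fitted fold against them depends on the prior count and is no bound.

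**Figure D4:**
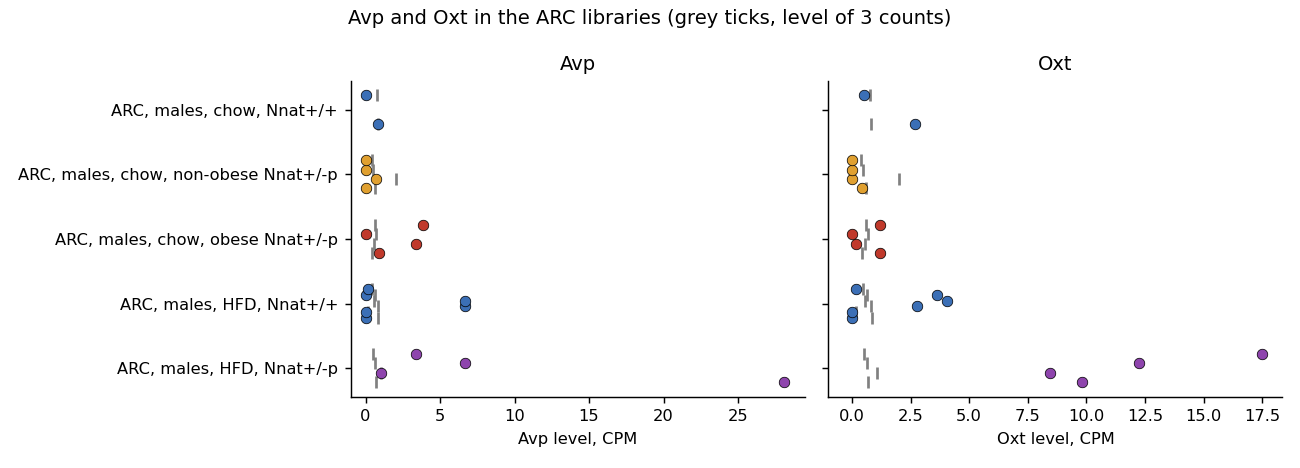
CPM of Avp and of Oxt in each of the 20 ARC libraries by group, on a linear axis, with the level that 3 counts would give in each library. Oxt of the 4 HFD Nnat+/-p libraries lies at 8.46 to 17.5 CPM, above the 16 other libraries, while Avp is high in replicate 50 only (28.1 CPM).

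Other genes of the PVN were read beside ARC Oxt. The summed level of the 6 PVN transcription factors was 149 to 217 CPM in HFD Nnat+/-p, 116 to 168 in obese chow and 80.2 to 170 in HFD Nnat+/+ libraries. Otp, a PVN transcription factor also used by ARC neurons, rose with HFD in Nnat+/-p libraries (1.29, SE 0.35, adjusted p = 0.143), as did the peptide genes Sst (1.14, adjusted p = 0.110) and Cartpt (0.88). Sim1 itself was at 0 to 6.08 CPM in HFD Nnat+/-p, 0 to 2.55 in obese chow and 0 to 7.59 in HFD Nnat+/+ libraries, and Crh at 0 to 0.352 CPM in HFD Nnat+/-p libraries. The 5 ARC neuron markers found in the tables, of 6 listed, summed to 152 to 276, 94.9 to 144 and 41.5 to 541 CPM in the same groups, and the 6 markers of the suprachiasmatic nucleus, where Avp is also made, to 11.3 to 35.3, 7.10 to 21.8 and 7.03 to 45.0 CPM. The part of these tissues in the Oxt level was not tested.

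The joint variation of the pair between libraries was read within each set. Correlations were computed on log2(CPM + 1), with permutation p-values adjusted over 21 relations. Across the 10 female-labelled PVN libraries Avp and Oxt were not detectably related (Pearson's r = 0.19, Spearman's rho = 0.28, adjusted p = 0.789). After group means were removed r was 0.44 and rho 0.44, given with no test. Avp rose there with the library's total count (r = 0.82, rho = 0.82, adjusted p = 0.0108), and without replicates 2 and 9, the farthest in depth, r was 0.68. Oxt with the total count gave r = 0.55 (adjusted p = 0.199), and Avp with Sim1 gave r = 0.62 (adjusted p = 0.160). Avp with labelled body weight gave r = 0.45 over the 20 ARC libraries (rho = 0.39, permutation p = 0.0432, adjusted p = 0.151), with r = 0.37 without replicates 34 and 43 and 0.15 after group means were removed, and the other relations with weight had higher adjusted p-values.

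The 19 male PVN libraries fell into 2 clusters, with replicates 15 and 24 near 0 for both genes, so the relations are read within the other 17. In these, chosen after the data were seen, Avp and Oxt rose together (r = 0.57, permutation p = 0.0119, adjusted p = 0.0415 over 7 relations; rho = 0.50, adjusted p = 0.138), and r was 0.51 without the pair of libraries farthest from the median on the x axis, replicates 25 and 29. After group means were removed r was 0.89, given with no test. Oxt with Sim1 gave r = 0.60 (permutation p = 0.00601, adjusted p = 0.0415) and rho = 0.55, which did not pass (permutation test, adjusted p = 0.138). Avp with Sim1 gave r = 0.31 (adjusted p = 0.338). Depth gave r = -0.36 with Avp and 0.29 with Oxt (adjusted p = 0.338 and 0.360), the former of the opposite sign to the female-labelled set.

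**Figure D5:**
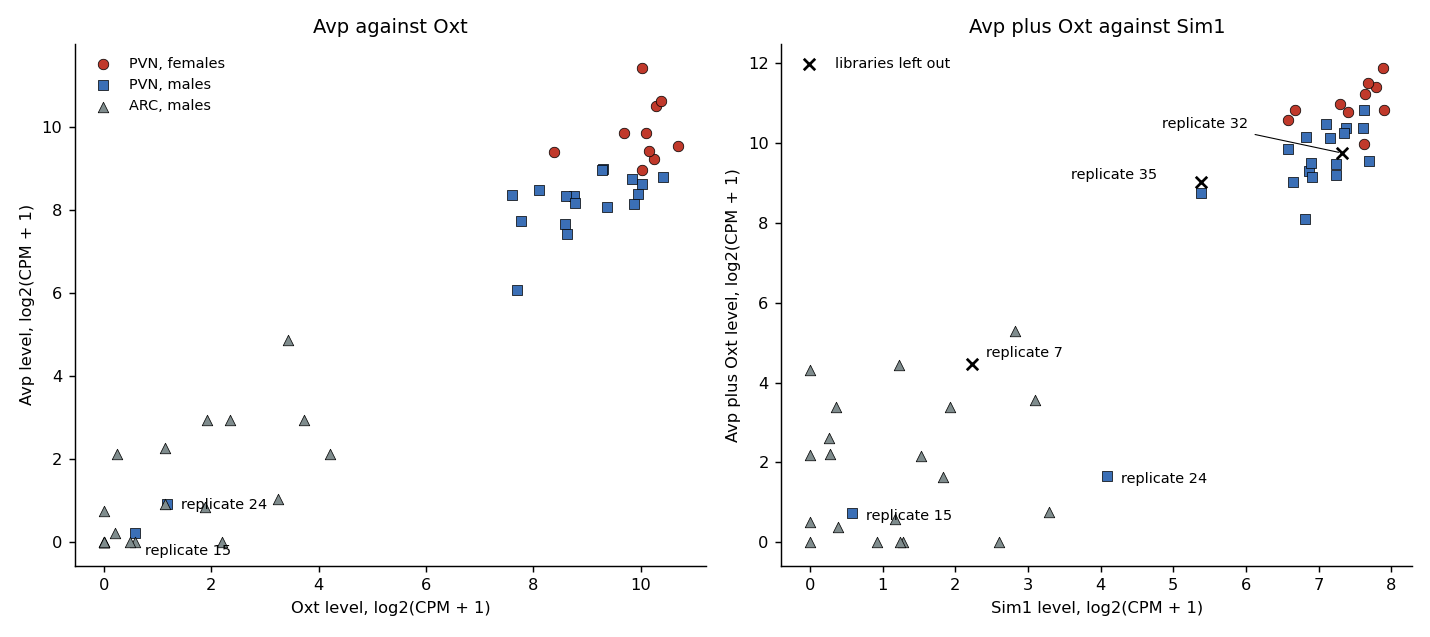
Avp against Oxt (left) and the sum of both against Sim1 (right) as log2(CPM + 1), 1 point per library, by table, with the left-out replicates 7, 32 and 35 as crosses on the right. Replicates 15 and 24 fall among the ARC libraries for both hormones, and replicates 32 and 35, labelled ARC, fall among the PVN libraries.

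Across the 20 ARC libraries Avp and Oxt were related at their low levels (r = 0.68, rho = 0.71, adjusted p = 0.00541), with r = 0.48 after group means were removed. Neither was related to Sim1 there (r = 0.19 for Avp and 0.11 for Oxt). The scatter within groups was large for both genes in the male PVN set. The within-group SD of log2(CPM + 1) was 2.56 for Avp and 2.92 for Oxt, which 2 and 1 of 17576 genes exceeded. Without replicates 15 and 24 it was 0.74 and 0.87, which 32.3% and 17.6% of genes exceeded, so the rank of the pair among variable genes rested on those libraries. In the female-labelled set it was 0.80 for Avp and 0.59 for Oxt, beside a median over all genes of 0.88.

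The genes most like the pair were taken by the lowest of 4 correlations, those with Avp and with Oxt in the female-labelled and in the male PVN sets, among 14796 genes. The 10 highest were Rtn4rl1 (0.70), Trh (0.69), Sphkap (0.66), Slc7a5 (0.65), Pcsk1 (0.65), Net1 (0.63), Tmcc3 (0.63), Sstr2 (0.62), Chst2 (0.62) and Ptger4 (0.61), where the median over all genes was -0.12. Trh is the thyrotropin-releasing hormone gene of parvocellular neurons, Pcsk1 a convertase that cuts prohormones, Slc7a5 an amino acid transporter, Sstr2 a somatostatin receptor and Ptger4 a prostaglandin E receptor. The male correlations used all 19 libraries. In the 17 without replicates 15 and 24, Trh kept 0.68 with Avp and 0.68 with Oxt, Sphkap had 0.27 and 0.77, and Pcsk1 had 0.32 and 0.49. These values are descriptions of the same libraries and carry no test.

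Genes that process the hormones or receive them were counted over the 17 comparisons other than PVN with ARC, in which edgeR called 0.258% of 270599 tests over all genes and 4.54% had an unadjusted p below 0.05. The list of 9 prohormone processing and packaging genes had 2 calls in 153 tests, both higher. Vgf, a granin-like peptide precursor, rose by 1.28 in obese Nnat+/-p against Nnat+/+ male PVN on chow (adjusted p = 0.143), and Pcsk1 rose by 0.76 with HFD in the ARC of Nnat+/+ mice. The Nnat+/+ group of the Vgf comparison held replicate 15, and the Vgf value without replicate 15 was not computed. The 4 hormone receptors had 0 calls by edgeR in 37 tests, with 1 at an unadjusted p below 0.05. The 6 PVN transcription factors had 1 call in 102 tests, that of Otp above. The 9 magnocellular co-expressed genes had 2 calls in 153 tests, both of Cartpt, higher on HFD in the ARC of Nnat+/+ (1.91) and of Nnat+/-p mice (0.88). The 3 parvocellular hormones had 2 calls in 51 tests, both of Sst in those comparisons (1.28 and 1.14). Over all genes, those 2 ARC comparisons had 1.16% (Nnat+/+) and 1.27% (Nnat+/-p) called, more than the pooled 0.258%. No enrichment of a list is read from these counts.

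Markers of other tissue moved in male PVN comparisons that held replicate 15, and their fold changes without that library were not computed. Nrgn, a gene of forebrain excitatory neurons, fell by 2.84 in obese and fell by 3.28 in non-obese Nnat+/-p against Nnat+/+ male PVN on chow, and it was at 226 CPM in replicate 15 against 2.78 to 51.0 CPM in the 17 other libraries without replicate 24. With HFD in Nnat+/+ male PVN, Pomc changed by -4.18, Slc17a7 by -5.15 and Nrgn by -3.02. Of the remaining lists, SCN neuron, thalamus, microglia, endothelial and ependymal markers had 0 calls by edgeR in the 17 comparisons, with 1, 6, 4, 6 and 4 tests at an unadjusted p below 0.05. Beside the 0.258% called over all genes, nothing is read from these counts. Astrocyte markers had 2 calls in 68 tests, both of Gfap, higher in the ARC (2.84 in obese Nnat+/-p against Nnat+/+ on chow and 1.90 with HFD in Nnat+/+). Oligodendrocyte markers had 2 calls in 68 tests, both lower with HFD in the ARC of Nnat+/+ mice, among them Mbp (-1.09). In the latter comparison 1.16% of all genes were called.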

How the data were processed

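RNA of laser-captured PVN and ARC sections was sequenced in 53 libraries, and the authors deposited raw read counts per gene in 3 tables (female-labelled PVN, male PVN and male ARC). Per the submitters' processing notes, reads were aligned with STAR 2.5.0a to GRCm38. The counting tool, its strand setting and its treatment of reads shared by Avp and Oxt are not given in the sources used here. Groups came from the sample titles and labels, which give replicate numbers 1 to 53. Labels do not state that every library of a group came from a separate mouse, so p-values measure the spread between these libraries, which may in part be technical.

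CPM were computed from the library totals. Differences were tested on the deposited counts with the quasi-likelihood test of edgeR 4.0.16 (R 4.3.3; TMM scaling, filterByExpr with a minimum count of 10, Benjamini-Hochberg adjustment over all genes, threshold 0.25 as in the study), with DESeq2 1.42.0 and limma 3.58.1 (voom with library weights) as alternatives. Chow groups were fitted together within a table, HFD comparisons with all groups of a table, and PVN against ARC over both male tables. The edgeR fit was also run on counts simulated from the means of these data, with an outcome that is not given here. Log2 ratios of Avp to Oxt counts (0.5 added) were compared by exact permutation of libraries, and correlations used log2(CPM + 1) with 100000 permutations. Intervals and limits from counts cover counting error only, since no molecular identifiers were used. Replicates 5 (2302 counts), 7, 32 and 35 were left out. The genes named as most alike were the 10 with the highest value of the lowest of 4 correlations, listed genes were named where called within a nucleus, and the members and lists were chosen with earlier results of these data known. Comparisons that join weight classes, the test over all PVN libraries and the fits without replicates 15 and 24 were added after the data were seen. Symbols were matched for 53274 of 53379 identifiers, and sequences came from the GRCm38 reference and RefSeq. A result for a withheld gene is not reported here.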

Additional observations from a re-analysis of the deposited data

Results flagged for a closer look

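Of 19 sets of group values, 4 had a library far from the others of its group. The rule gives about 1 in 20 for normally distributed values only, so the number of flags is not set against that rate. In the non-obese Nnat+/-p ARC libraries on chow, replicate 39 had 0.676 CPM of Avp (1 count) and replicate 38 had 0.409 CPM of Oxt (2 counts), while the other 3 libraries had 0 in each case. With 3 values at 0, any count in the remaining library is flagged, so these flags carry no information. In the female-labelled Nnat+/+ PVN libraries, replicate 1 had an Avp to Oxt ratio of 1.17, against 0.452 to 0.494 in the other 3. In the HFD Nnat+/-p ARC libraries, replicate 50 had a ratio of 2.86.

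Signal was also present in libraries used in no comparison. Replicate 32, labelled ARC and held in the male PVN table, had 277 CPM of Avp and 584 CPM of Oxt with 159 CPM of Sim1, which are levels of the PVN libraries. Replicate 35, labelled ARC Nnat+/+ on chow with 271324 counts, had 203 CPM of Avp, 313 CPM of Oxt and 0 of Pomc. Replicate 15, labelled PVN Nnat+/+ on chow with the same body weight, was nearly free of both hormones and had 98.4 CPM of Pomc. Whether these libraries were exchanged was not tested, and each kept its label. Replicate 7, in the female-labelled table with 30.8 CPM of the Y-linked gene Ddx3y, had 9.84 CPM of Avp and 11.1 CPM of Oxt.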

How the results depend on the processing

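Values with an adjusted p near 1 changed sign under several settings, and the cause was not tested. With all labelled libraries, replicates 5, 7 and 35 included, the log2 difference was -0.034 for Oxt between female-labelled obese and non-obese Nnat+/-p, -4.02 for Avp in the ARC on chow (obese Nnat+/-p against Nnat+/+), and -3.79 for Avp and -4.82 for Oxt for HFD against chow in the ARC of Nnat+/+ mice. Under the same setting the ARC Oxt difference of HFD against obese chow in Nnat+/-p was 4.15 (adjusted p = 0.322) and the ARC interaction of Oxt 8.97 (adjusted p = 0.0999). In the ARC this setting adds replicate 35 alone, to the chow Nnat+/+ group. It had 203 CPM of Avp and 313 CPM of Oxt from 271324 counts, against at most 0.807 and 2.69 CPM in replicates 33 and 34. The ARC values against chow Nnat+/+, the interaction included, therefore rest on that library under this setting. With limma, Oxt differed by 1.22 (obese) and 1.4 (non-obese) from Nnat+/+ in the male PVN on chow, by 0.57 between genotypes on HFD, by -0.74 for the interaction and by -0.58 for HFD against chow in ARC Nnat+/+, and the ARC Oxt difference between genotypes on HFD was 3.78 (adjusted p = 0.0691). Without replicates 24, 30, 44 and 51, whose body weights stand under the other genotype in the other nucleus, Avp between genotypes in the male PVN on HFD was -0.026 and the ARC ratio difference on HFD 0.070. Without replicates 15 and 24 that Avp value was -0.14 and HFD against chow in Nnat+/+ -0.067. With no filter on low counts, calls were gained for Oxt in male PVN Nnat+/-p on HFD against obese chow (0.69, adjusted p = 0.115), for Avp (2.26, adjusted p = 0.215) and Oxt (2.78, adjusted p = 0.0157) between genotypes in the ARC on HFD, and for Avp in ARC Nnat+/-p on HFD against obese chow (2.42, adjusted p = 0.105). At a threshold of 0.05 the called ARC Oxt value of 4.15 was no longer called. On TMM-scaled log2 CPM, r in the female-labelled set was -0.16 for Avp with Oxt and 0.74 for Avp with depth (adjusted p = 0.0561), and in the male PVN 0.0066 for Oxt with depth.

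With each library left out in turn, these values spanned 0 or the threshold. In the female-labelled set Avp ranged over -0.085 to 1.01 (non-obese Nnat+/-p against Nnat+/+) and -0.53 to 0.53 (obese against non-obese). In the male PVN on chow, Oxt ranged over -0.84 to 0.23 (obese against Nnat+/+) and -0.78 to 0.30 (non-obese against Nnat+/+), and obese against non-obese over -0.059 to 0.46 for Avp and -0.37 to 0.24 for Oxt. On HFD, genotype ranged over -0.27 to 0.36 for Avp and -0.64 to 0.23 for Oxt, HFD against chow in Nnat+/+ over -0.33 to 0.88 and -0.072 to 1.01, and the interaction over -0.37 to 0.77 for Oxt. In the ARC, the fitted value of non-obese Nnat+/-p against Nnat+/+ ranged over -4.24 to 2.10 for Avp, from 1 and 3 counts and so no measure of a fold, HFD against chow in Nnat+/+ over -0.61 to 1.72 for Oxt, HFD against obese chow in Nnat+/-p over 3.79 to 4.63 for Oxt, and the interaction over -4.14 to 0.99 for Avp. Ratio differences ranged over -0.028 to 0.26 (male HFD, genotype), -0.23 to 0.031 (male Nnat+/+, diet), 0.85 to 1.39 (female-labelled, joined weight classes) and -1.27 to -1.02 (male Nnat+/-p, HFD against all chow, exact permutation p = 0.0556 without replicate 29). Correlations ranged over -0.038 to 0.28 (Avp with Oxt), -0.10 to 0.20 (Oxt with Sim1), -0.34 to 0.44 (Oxt with weight) and 0.76 to 0.92 (Avp with depth, weaker without replicate 2 or 9) in the female-labelled set, -0.20 to 0.26 (Avp with weight), -0.15 to 0.29 (Oxt with weight) and -0.044 to 0.089 (Oxt with depth) over all 19 male PVN libraries, and -0.028 to 0.29 (Avp with Sim1) and -0.010 to 0.24 (Oxt with Sim1) in the ARC.

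All other alternatives kept direction and side of the threshold, an adjusted p of 0.25 for fold changes and 0.05 for ratios and correlations (unadjusted for the comparisons added later): 539 of 602 for fold changes, 200 of 210 for ratios and 343 of 364 for correlations. The ratio difference of obese Nnat+/-p from Nnat+/+ on male chow was 1.03 with 5 counts added (exact permutation p = 0.0857, adjusted p = 0.268), and its adjusted p was 0.306 without any 1 of the 7 libraries. Counts of called genes over the 17 comparisons ran from 0 to 251, from 0 to 472 with DESeq2, 0 to 303 with RLE scaling, 6 to 1134 with no filter, 0 to 700 with limma, 0 to 678 with only the groups compared and 0 to 936 with all labelled libraries. With the counts of replicates 39 and 40 summed, no call of Avp or Oxt changed. No paired analysis was possible within a nucleus because the replicate numbers run from 1 to 53 and no groups share one. Between nuclei a replicate block by labelled body weight (15 pairs), which the labels do not say mark the same mouse, gave 8.23 for Avp and 8.44 for Oxt. Low counts of the pair limit the ARC values, where 12 of 20 libraries had at most 3 Avp counts. The median library total was 4789620 counts in the ARC set and 5582720 in the male PVN set. Replicate 45, the deepest ARC library (18058097 counts), had 0 counts of both genes.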
